A study of Mus musculus with 20 samples.

Results

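The macrophage genes described here are 10 genes whose products mark macrophages, keep them alive or serve their uptake of debris: Csf1, Csf1r, Adgre1, Itgam, Mrc1, Cd163, Folr2, Cd68, Lgals3 and Mertk. They were taken by gene symbol and not by a cut on their values, though earlier results of these data were known. The choice was from 18194 genes with a probe set, and all 10 were measured. The 10 genes have 15 probe sets, and for each gene the one of highest mean value over all 20 arrays is given. No member passed the test, a fit without pairing of animals, in any of 8 comparisons between groups. From animal to animal the members, except Csf1, varied more than most genes, and 44 of 45 pairs of them correlated positively.

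Expression was measured by microarray in whole mammary glands of 20 female FVB/N mice of 1 line, 1372-1 TgN(Nrl-tgfalpha)29EPS, with 1 array per animal. All 20 animals, placebo animals included, were heterozygous for the NRL-TGFa transgene, in which the promoter of neu-related lipocalin drives transforming growth factor alpha in mammary epithelium, so no group lacked the transgene. At 8.5 weeks of age each mouse received an implant under the skin, either with 5 mg of tamoxifen, a drug that binds the oestrogen receptor, or with carrier alone (placebo). The number 4 gland, without tumor, was taken at 20.5 to 21 weeks, 4 weeks after treatment ended, and each mouse was observed for tumors afterwards, for no longer than to the age of 2 years. There were 7 placebo animals with a later tumor, 3 placebo animals without, 3 tamoxifen animals with a later tumor and 7 tamoxifen animals without. Animals are named below by treatment and by the replicate number in their label. The sources used here do not tell whether same-numbered animals share a litter or day.

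Macrophages in the mammary gland lie in the fat pad and along the ducts, and take part in duct growth and in the clearing of cells after lactation. Their survival depends on the growth factor encoded by Csf1, which binds the receptor encoded by Csf1r. The number 4 gland of the mouse also holds a lymph node, which has macrophages of its own. In whole glands, fewer macrophages and less RNA per macrophage cannot be told apart.

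Values are log2 expression, so a difference of 1 is a doubling, and the arrays' number limits the precision. Array medians lay between 6.82 and 6.89, and 6.85, the median of all values, served as the level a gene had to exceed on 3 arrays to be tested. All 10 members passed it, Itgam on 19 arrays and the others on all 20. Of the markers with a probe set, those of epithelium (8 of 8), white adipocytes (6 of 6) and fibroblasts (6 of 6) had means above that level. So did those of skeletal muscle (6 of 6), T cells (6 of 6) and endothelium (5 of 5), so passing this level does not tell tissues apart. On the first principal component, which held 28.7% of the variance, placebo animals 8, 7 and 9 lay farthest out, at -63.6, -45.3 and -18.2.

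Promoter sequence is shown for 3 of the 8 members whose windows were used. Their 250 bases before the start site hold the letters GAGGAA or their reverse complement TTCCTC. These are a core of the purine-rich box bound by PU.1, a transcription factor of macrophages. Capitals mark the letters found on either strand, and each sequence runs 5′ to 3′ on the gene's strand (RefSeq, GRCm38.p6). Mrc1 lies on the plus strand at chr2:14229164-14229413, Itgam on the plus strand at chr7:128062390-128062639 and Cd68 on the minus strand at chr11:69666171-69666420.
Mrc1: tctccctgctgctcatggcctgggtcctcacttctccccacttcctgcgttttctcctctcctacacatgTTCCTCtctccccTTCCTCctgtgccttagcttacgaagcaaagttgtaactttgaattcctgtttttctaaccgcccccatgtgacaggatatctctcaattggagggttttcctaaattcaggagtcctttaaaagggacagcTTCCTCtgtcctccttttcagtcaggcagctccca
Itgam: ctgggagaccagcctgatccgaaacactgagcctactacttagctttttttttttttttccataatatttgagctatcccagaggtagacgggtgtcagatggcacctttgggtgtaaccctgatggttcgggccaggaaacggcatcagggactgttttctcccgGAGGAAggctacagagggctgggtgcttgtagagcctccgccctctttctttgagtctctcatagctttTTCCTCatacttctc
Cd68: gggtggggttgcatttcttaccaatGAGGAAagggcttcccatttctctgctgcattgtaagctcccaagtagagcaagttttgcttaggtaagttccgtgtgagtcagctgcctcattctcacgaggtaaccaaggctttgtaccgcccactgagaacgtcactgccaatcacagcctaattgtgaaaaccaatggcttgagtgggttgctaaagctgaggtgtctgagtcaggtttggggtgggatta
Mrc1 held 3 such matches, at 180, 167 and 35 bases before its start, Itgam held 2, at 84 and 15 bases, and Cd68 held 1, at 225 bases. The windows counted were those of 9 starts of 8 members, and Adgre1 and Csf1r were not among them. Of the 9, 3 (33.3%) held a match, against 7639 of 32851 windows of all genes (23.3%). As these members were left out, the share among all members is not known, and the shares may not be counted alike. The letters were chosen after the gene lists were written, and the first count used 300 bases, which run past the start into transcribed sequence. There the shares were 33.3% and 28.3%. The window was then shortened to 250 bases to leave transcribed bases out. These matches are a description of 9 windows, and nothing was tested with them.

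The first question was whether the glands of animals that later had a tumor differed in these genes from the glands of animals that did not. The tumor arm held 7 placebo and 3 tamoxifen animals and the other arm 3 and 7, so this comparison also carries treatment. In this comparison of 10 with 10 animals, limma called 29 of 12499 genes (0.232%) and none of the 10 members, whose smallest adjusted p was 0.683. With treatment in the model, 0 genes were called. At an unadjusted p under 0.05 the count of members was also 0, against 16.5% of all genes. No member's 2 groups were free of overlap, against 0.032% of genes. Member differences, tumor minus no tumor, ran from -0.12 to 0.14 on the log2 scale, with a median of 0.019 against -0.010 for all genes. The widest 95% confidence interval allowed at most a 1.53-fold difference in either direction, that of Lgals3, and all the others allowed less.

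The second comparison set tamoxifen against placebo animals, again 10 with 10. These arms likewise differ in their share of later tumors. limma called 1 gene of 12499 (0.008%) and none of the members, with a smallest adjusted p among them of 0.626. With outcome in the model, 0 genes were called. At an unadjusted p under 0.05 the members again numbered 0, against 13.9% of genes, and groups free of overlap were found for 0 members and 0.016% of genes. Differences, tamoxifen minus placebo, ran from -0.031 to 0.28, with a median of 0.013 against 0.0011 for all genes. The widest interval of any member, that of Lgals3, ended at 0.77.

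The third comparison took the 7 tamoxifen animals without a tumor against the 7 placebo animals with one, which differ in both treatment and outcome. It called 579 of 12499 genes (4.63%) by limma, and none of the 10 members (smallest adjusted p 0.574). The count at an unadjusted p under 0.05 was 0 members, against 20.4% of genes, and groups free of overlap were found for 0 members and 1.45% of genes. Member differences ran from -0.12 to 0.28, with a median of -0.0039 against 0.0099 for all genes. The interval of Lgals3 reached a 1.81-fold difference, the widest among members.

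**Figure D1:**
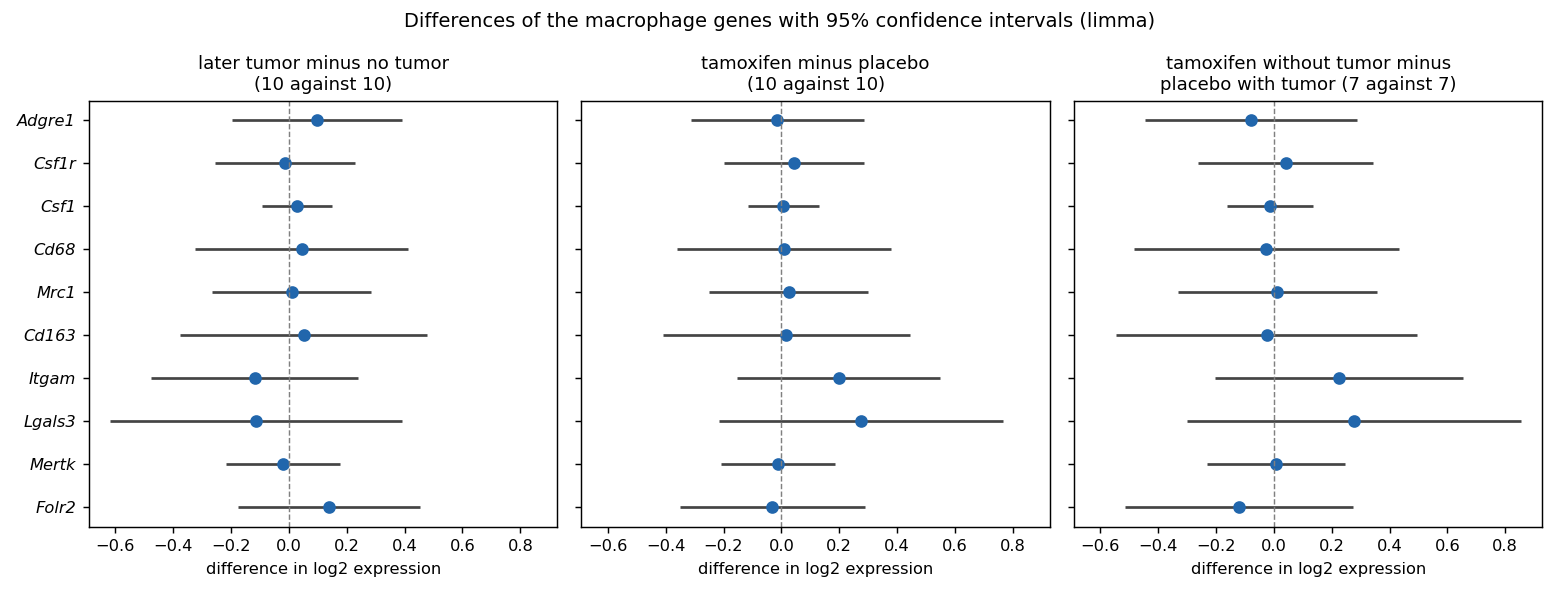
Difference in log2 expression (x axis) for each of the 10 macrophage genes (y axis) in the 3 comparisons, with points for the limma estimate and lines for the 95% confidence interval. Every interval holds 0, and Lgals3 has the widest, reaching 0.85 in the comparison of 7 with 7 animals.

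The remaining comparisons split the animals further, with arms of 3 and 7. Outcome within placebo animals called 1 gene (0.008%), outcome within tamoxifen animals 1 gene (0.008%), treatment among animals without tumor 8 genes (0.064%), and treatment among animals with tumor and the interaction of treatment and outcome none (0.0% each). No member was called by limma in any of the 5. Unadjusted p-values under 0.05 were found for 0 members in each, against 14.1%, 2.1%, 5.26%, 7.0% and 4.52% of genes in that order. This count moved with single animals. By treatment among animals without tumor, Lgals3 had an unadjusted limma p of 0.0273 without tamoxifen animal 8, 0.0466 without tamoxifen animal 7 and 0.0391 without placebo animal 4. None of these passed after adjustment. Placebo animal 4 had a later tumor and was in neither arm. Without it the difference stayed at 0.70 and the SE fell from 0.36 to 0.32, as the 4 groups share 1 estimate of the spread. In the first 4 of the 5 comparisons, groups were free of overlap for 0 members and for 4.66%, 1.27%, 2.37% and 3.53% of genes. With 3 animals in an arm the intervals were wider, reaching a 2.73-fold difference for Lgals3 by treatment among animals without tumor and 3.77-fold for its interaction.

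The growth factor and its receptor are taken first. Csf1, the macrophage colony-stimulating factor, (Entrez ID 12977) ran from 9.43 in tamoxifen animal 8 to 9.86 in placebo animal 1. The 7 placebo animals with a later tumor ran from 9.45 to 9.86 around a median of 9.72, and the 3 without had 9.47, 9.59 and 9.64. Tamoxifen animals with a tumor had 9.50, 9.63 and 9.75, and those without ran from 9.43 to 9.82 around 9.65. All 4 groups of Csf1 overlapped. The limma differences of Csf1 were 0.028 by outcome (95% interval -0.094 to 0.15, adjusted p = 0.853), 0.0073 by treatment (-0.11 to 0.13, adjusted p = 0.965) and -0.015 in the comparison of 7 with 7 (-0.16 to 0.13, adjusted p = 0.933). Csf1 had the smallest SD of the members, 0.13 over the 20 animals. Its 4 probe sets did not agree on a direction by outcome: the other 3 gave -0.0013, -0.022 and -0.044, with adjusted p between 0.849 and 0.992.

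Csf1r encodes the receptor tyrosine kinase for Csf1, which nearly all macrophages carry (Entrez ID 12978). It ran from 11.56 in placebo animal 8 to 12.67 in tamoxifen animal 6. Among placebo animals the 7 with a tumor ran from 11.56 to 12.64 (median 12.38), and the 3 without had 12.11, 12.39 and 12.49. The 3 tamoxifen animals with a tumor had 12.29, 12.36 and 12.48, and the 7 without ran from 11.79 to 12.67 (median 12.39). Group medians of Csf1r thus lay between 12.36 and 12.39, while single animals lay up to 1.11 apart. Its differences were -0.014 by outcome (-0.26 to 0.23, adjusted p = 0.962), 0.044 by treatment (-0.20 to 0.28, adjusted p = 0.891) and 0.041 in the 7 with 7 (-0.26 to 0.34, adjusted p = 0.907), all by limma. Its other 2 probe sets gave -0.059 and -0.064 by outcome, and 0.064 and 0.089 by treatment.

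Adgre1 and Itgam encode surface proteins by which macrophages are often recognized. Adgre1, the F4/80 antigen (Entrez ID 13733), ran from 8.32 in placebo animal 8 to 9.80 in placebo animal 4. Placebo animals with a tumor thus covered its whole range, around a median of 9.13, and those without had 8.72, 8.83 and 9.21. Tamoxifen animals with a tumor had 8.91, 9.13 and 9.13, and those without ran from 8.38 to 9.42 around 9.11. The lowest of the latter, tamoxifen animal 8, lay well below the next animal of its group, at 9.07. Adgre1 differed by 0.098 with outcome (-0.20 to 0.39, adjusted p = 0.776), by -0.014 with treatment (-0.31 to 0.28, adjusted p = 0.973) and by -0.080 in the 7 with 7 (-0.45 to 0.29, adjusted p = 0.843; limma).

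Itgam encodes the integrin chain CD11b, which monocytes and neutrophils also carry (Entrez ID 16409). It ran from 6.59 in placebo animal 8, the single value below the filter level, to 8.16 in tamoxifen animal 3. The 7 placebo animals with a tumor ran from 6.59 to 8.16 (median 7.58), and the 3 without had 7.15, 7.24 and 7.75. Tamoxifen animals had 7.26, 7.55 and 7.73 with a tumor, and 7.10 to 8.16 (median 7.90) without. The tamoxifen animals without a tumor had the highest median of the 4 groups, inside the range of the placebo animals with one. Its differences were -0.12 by outcome (-0.48 to 0.24, adjusted p = 0.777), 0.20 by treatment (-0.15 to 0.55, adjusted p = 0.626) and 0.23 in the 7 with 7 (-0.20 to 0.66, adjusted p = 0.574), by limma.

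Mrc1, Cd163 and Folr2 encode receptors of resident tissue macrophages: Mrc1 is the mannose receptor CD206, Cd163 takes up haemoglobin bound to haptoglobin, and Folr2 is a folate receptor. Mrc1 (Entrez ID 17533) ran from 10.00 in placebo animal 8 to 11.07 in tamoxifen animal 3. By group its values were 10.00 to 11.04 (median 10.70) in placebo animals with a tumor, 10.37, 10.54 and 10.77 in those without, 10.55, 10.59 and 10.71 in tamoxifen animals with a tumor, and 10.01 to 11.07 (median 10.67) in those without. Both groups of 3 lay inside the range of both groups of 7. Mrc1 differed by 0.0091 with outcome (-0.27 to 0.28, adjusted p = 0.980), 0.025 with treatment (-0.25 to 0.30, adjusted p = 0.948) and 0.012 in the 7 with 7 (-0.33 to 0.36, adjusted p = 0.979), by limma.

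Cd163 (Entrez ID 93671) ran from 7.57 in placebo animal 8 to 9.48 in placebo animal 2. Placebo animals with a tumor spanned that whole range around a median of 8.70, and those without had 8.48, 9.10 and 9.20. Tamoxifen animals with a tumor had 8.78, 8.95 and 9.40, and those without ran from 8.14 to 9.33 around 8.82. The lowest tamoxifen value was that of animal 4, not of animal 8. Cd163 differed by 0.051 with outcome (-0.38 to 0.48, adjusted p = 0.929), 0.017 with treatment (-0.41 to 0.45, adjusted p = 0.978) and -0.024 in the 7 with 7 (-0.54 to 0.50, adjusted p = 0.970), by limma. It had the smallest p of the members by treatment among animals with a tumor, where the difference was 0.30 (-0.37 to 0.98, adjusted p = 0.848).

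Folr2 (Entrez ID 14276) ran from 9.31 in placebo animal 8 to 10.60 in tamoxifen animal 6. The groups had 9.31 to 10.51 (median 10.30) in placebo animals with a tumor, 9.54, 9.96 and 10.29 in those without, 9.87, 10.15 and 10.30 in tamoxifen animals with a tumor, and 9.42 to 10.60 (median 9.93) in those without. Again each group overlapped the other 3. Folr2 had the smallest p of the members by outcome, with a difference of 0.14 (-0.18 to 0.45, limma adjusted p = 0.683). Its differences were -0.031 by treatment (-0.35 to 0.29, adjusted p = 0.945) and -0.12 in the 7 with 7 (-0.52 to 0.27, adjusted p = 0.767).

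Cd68 and Lgals3 are high in macrophages that have taken up much material: Cd68 is a glycoprotein of lysosomes, and Lgals3 is galectin-3, a lectin that epithelial cells also make. Cd68 (Entrez ID 12514) ran from 8.99 in tamoxifen animal 8 to 10.76 in tamoxifen animal 4, both without a tumor, around that group's median of 9.74. Placebo animals with a tumor ran from 9.36 to 10.46 (median 9.94), and those without had 9.23, 9.86 and 10.03. Tamoxifen animals with a tumor were close together, at 9.73, 9.78 and 9.89. Cd68 differed by 0.045 with outcome (-0.32 to 0.41, adjusted p = 0.929), 0.0084 with treatment (-0.36 to 0.38, adjusted p = 0.988) and -0.026 in the 7 with 7 (-0.49 to 0.43, adjusted p = 0.964), by limma.

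Lgals3 (Entrez ID 16854) had the widest range, 5.81-fold from 9.34 in placebo animal 5 to 11.88 in tamoxifen animal 4. Placebo animals with a tumor ran from 9.48 to 11.24 (median 10.09), and those without had 9.34, 9.91 and 10.06. Tamoxifen animals with a tumor had 10.02, 10.04 and 10.06, an SD of 0.021, and those without ran from 9.69 to 11.88 (median 10.29). The high values of Lgals3 were few: placebo animal 4 at 11.24, tamoxifen animal 4 at 11.88 and tamoxifen animal 3 at 10.83. Its differences were -0.11 by outcome (-0.62 to 0.39, adjusted p = 0.857), 0.28 by treatment (-0.22 to 0.77, adjusted p = 0.631) and 0.28 in the 7 with 7 (-0.30 to 0.85, adjusted p = 0.612), by limma. Without tamoxifen animal 4 these were 0.10 by treatment and 0.044 in the 7 with 7, and without placebo animal 4 they were 0.41 and 0.45. In the splits with 3 animals an arm, Lgals3 had the smallest p of the members 4 times. The differences were 0.70 by treatment among animals without tumor (-0.040 to 1.45, unadjusted p = 0.0624, adjusted p = 0.958), 0.43 by outcome within placebo (-0.32 to 1.17, adjusted p = 0.605), -0.44 by outcome within tamoxifen (-1.18 to 0.31, adjusted p = 1.0) and -0.86 for the interaction (-1.92 to 0.19, adjusted p = 0.938), all by limma. Without tamoxifen animal 4 the difference by outcome within tamoxifen was -0.20.

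Mertk encodes a receptor tyrosine kinase by which macrophages engulf dying cells (Entrez ID 17289). It ran from 8.08 in placebo animal 8 to 8.88 in placebo animal 2. These were also the ends of the placebo animals with a tumor, whose median was 8.50, and those without had 8.50, 8.61 and 8.72. Tamoxifen animals with a tumor had 8.47, 8.49 and 8.71, and those without ran from 8.18 to 8.76 around 8.47. Placebo animal 10, high in several other members, was the second lowest for Mertk, at 8.11. Mertk differed by -0.021 with outcome (-0.22 to 0.18, adjusted p = 0.937), -0.011 with treatment (-0.21 to 0.19, adjusted p = 0.967) and 0.0070 in the 7 with 7 (-0.23 to 0.25, adjusted p = 0.981), by limma.

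**Figure D2:**
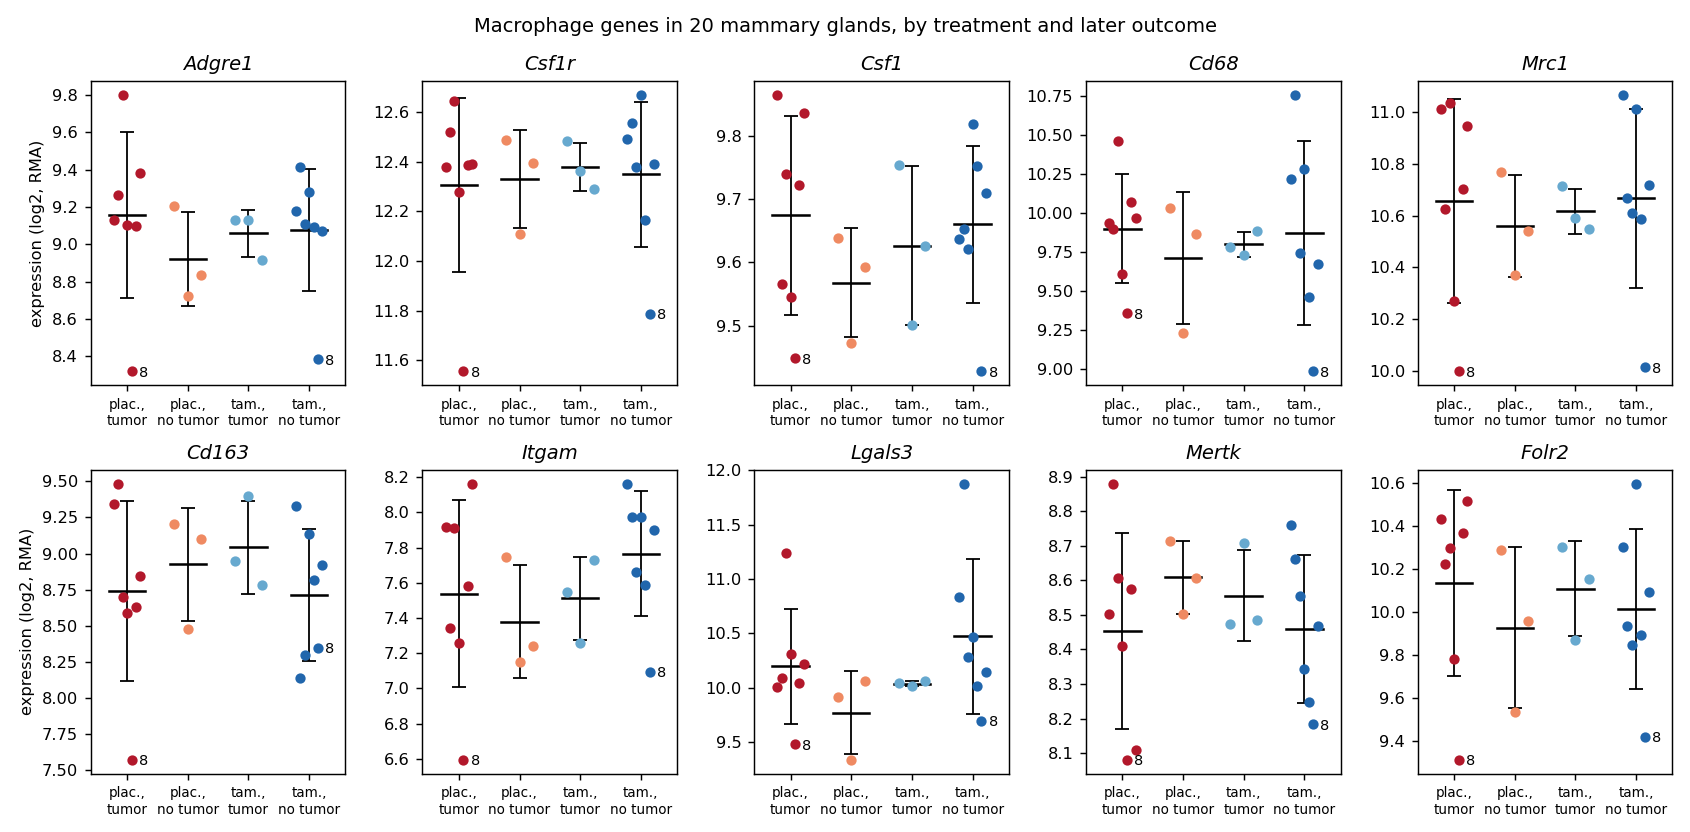
Log2 expression (y axis) of the 10 macrophage genes in 20 glands, by treatment (plac., placebo; tam., tamoxifen) and later outcome (x axis); points are animals, horizontal lines group means, bars 1 SD, and the mark 8 labels animals of replicate number 8. The 4 groups overlap for every gene, and the animals marked 8 are among the lowest for most.

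The spread between animals was large beside these differences. The SD over the 20 animals was 0.57 for Lgals3, 0.48 for Cd163, 0.41 for Cd68 and Itgam, 0.36 for Folr2, 0.33 for Adgre1, 0.31 for Mrc1, 0.27 for Csf1r, 0.22 for Mertk and 0.13 for Csf1, against a median of 0.14 over all genes tested. Lgals3 varied more than 98.1% of genes and Mertk more than 76.6%, while Csf1 varied more than 43.3%. Little of this variance lay between the 4 groups: 0.94% for Csf1r, 1.56% for Mrc1, 2.68% for Cd68 and at most 18.7%, for Lgals3. For the median gene the share was 17.0%, and each member except Lgals3 was below it.

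The same few animals stood at the low end. Placebo animal 8, with a later tumor, was below the mean of all 20 animals for 10 of 10 members and among the lowest 2 for 9 of them, by 0.70 on average. Tamoxifen animal 8, without a tumor, was below the mean for 10 of 10 and among the lowest 2 for 7, by 0.54 on average. Placebo animal 5, without a tumor, was among the lowest 3 for 7 members, at -0.38 on average. The low animals thus came from 3 different groups. At the high end were placebo animal 4 (0.37 above on average), and tamoxifen animals 3, 4 and 6 (0.33, 0.29 and 0.29).

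Some lists of other cell markers were also extreme in some of these animals, and their part in the members' values was not tested. Placebo animal 8 had the highest mean of the 8 pan-epithelial markers, 10.93, and the lowest of the T cell (8.97), dendritic cell (7.80), neutrophil (7.0) and endothelial (9.42) markers among the 20 animals. Tamoxifen animal 8 was lowest for mast cell markers (8.84), 18th for dendritic cells and 14th for epithelium. Its neutrophil mean, 7.63, lay above the mean of all 20 animals, 7.51. Placebo animal 5, also low in the members, had the lowest pan-epithelial (8.52) and fibroblast (11.83) means, so the low animals lay at both ends of the epithelial list. Tamoxifen animal 4 was highest for B cell (10.75), neutrophil (8.11) and dendritic cell markers (8.56). Tamoxifen animal 6 was highest for T cell markers (10.39), and placebo animal 4 for mast cell markers (9.90).

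**Figure D3:**
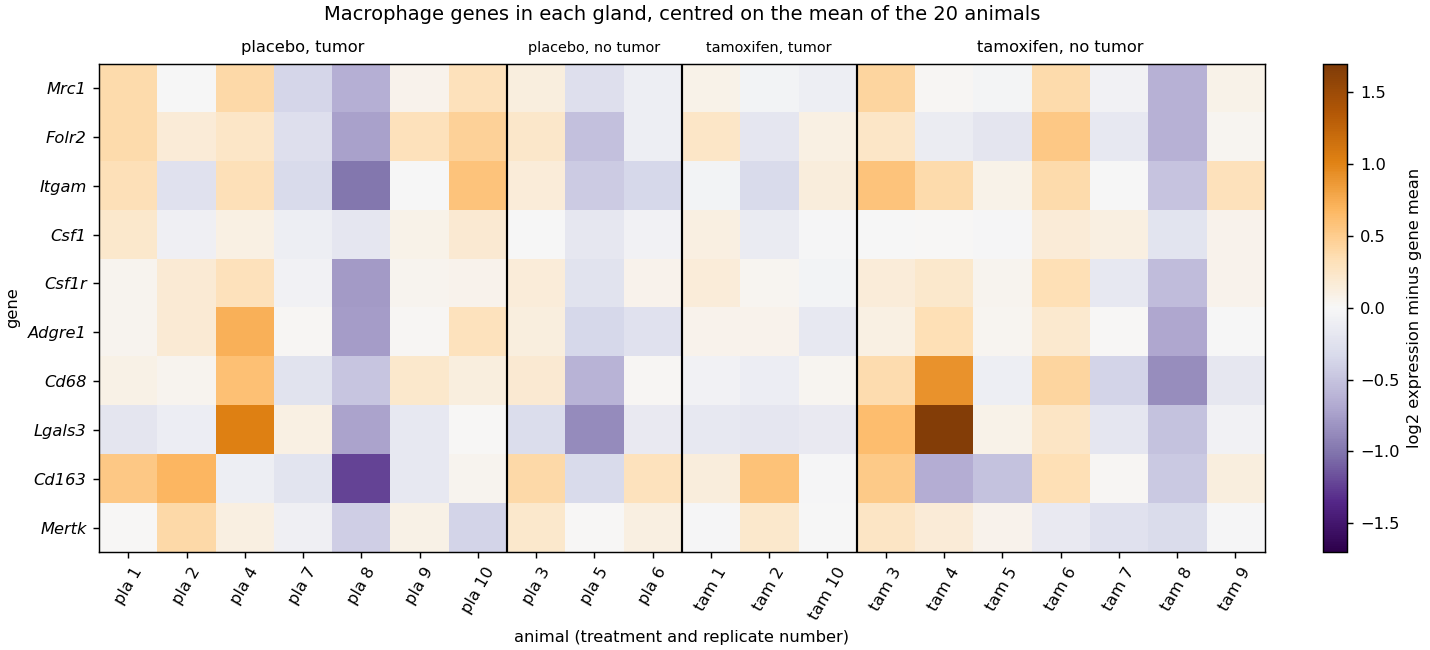
Log2 expression of each macrophage gene minus its mean over the 20 animals (colour), with genes on the y axis and animals, in 4 groups, on the x axis (pla, placebo; tam, tamoxifen). Placebo animal 8 and tamoxifen animal 8 are below the mean for all 10 genes, and tamoxifen animal 4 combines the highest Lgals3 with a low Cd163.

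Over the 20 animals, 44 of 45 pairs of members correlated positively, with a median Pearson r of 0.63. By permutation with adjustment over 90 p-values, 32 pairs passed by Pearson's r, 30 by Spearman's rho and 30 by both. The closest pair was Mrc1 and Folr2 (r = 0.90, rho = 0.85, adjusted permutation p = 0.000112 and 0.000129), and r was 0.83 without the 2 animals farthest from the median of Mrc1. Adgre1 and Csf1r followed (r = 0.89, rho = 0.81, adjusted permutation p = 0.000112 and 0.000159; r = 0.73 without the 2 animals farthest for Adgre1). Mrc1 and Itgam had r = 0.88 (rho = 0.86, adjusted permutation p = 0.000112 for both), or 0.82 without the 2 farthest. The promoters of both are among those printed above, while the windows of Folr2, in the closest pair, held no match. Any link between these letters and the correlations was not tested.

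The ligand and its receptor, Csf1 and Csf1r, were less close, with r = 0.62 (rho = 0.50, adjusted permutation p = 0.00527 and 0.0396) and r = 0.37 without the 2 animals farthest for Csf1r. Csf1 ran closer to Folr2 (r = 0.85, rho = 0.84, adjusted permutation p = 0.000112 for both; 0.81 without the 2 farthest). Cd68 and Lgals3 had r = 0.84 and rho = 0.63 (adjusted permutation p = 0.000129 and 0.00647), and r = 0.80 without the 2 farthest. Differences between correlations were not tested.

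Cd163 and Mertk ran least with the rest. Cd163 passed by Pearson's r in 4 of its 9 pairs and Mertk in 3 of 9, against 9 of 9 for Csf1r. Cd163 and Lgals3 had r = 0.017 (rho = 0.020, adjusted permutation p = 0.943 for both; r = 0.16 without the 2 farthest). Csf1 and Mertk had the only negative r, -0.052 (rho = -0.11, adjusted permutation p = 0.847 and 0.652; r = -0.24 without the 2 farthest).

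The number of pairs that passed depended on placebo animal 8 and tamoxifen animal 8. Without both, an alternative chosen after seeing the data, 21 pairs passed by Pearson's r in place of 32 and the median r was 0.45 in place of 0.63. Cd163 then passed in 0 of its pairs and Mertk in 1, its negative r with Csf1 (r = -0.54, adjusted permutation p = 0.0479). Mrc1 with Folr2 (r = 0.83), Mrc1 with Itgam (0.82), Csf1r with Cd68 (0.83) and Cd68 with Lgals3 (0.85) still passed, each at an adjusted permutation p of 0.0009. Without placebo animals 7, 8 and 9, the 3 farthest on the first principal component, 25 pairs passed and the median r was 0.60. No member was called in any of the 8 comparisons under either of these exclusions.

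**Figure D4:**
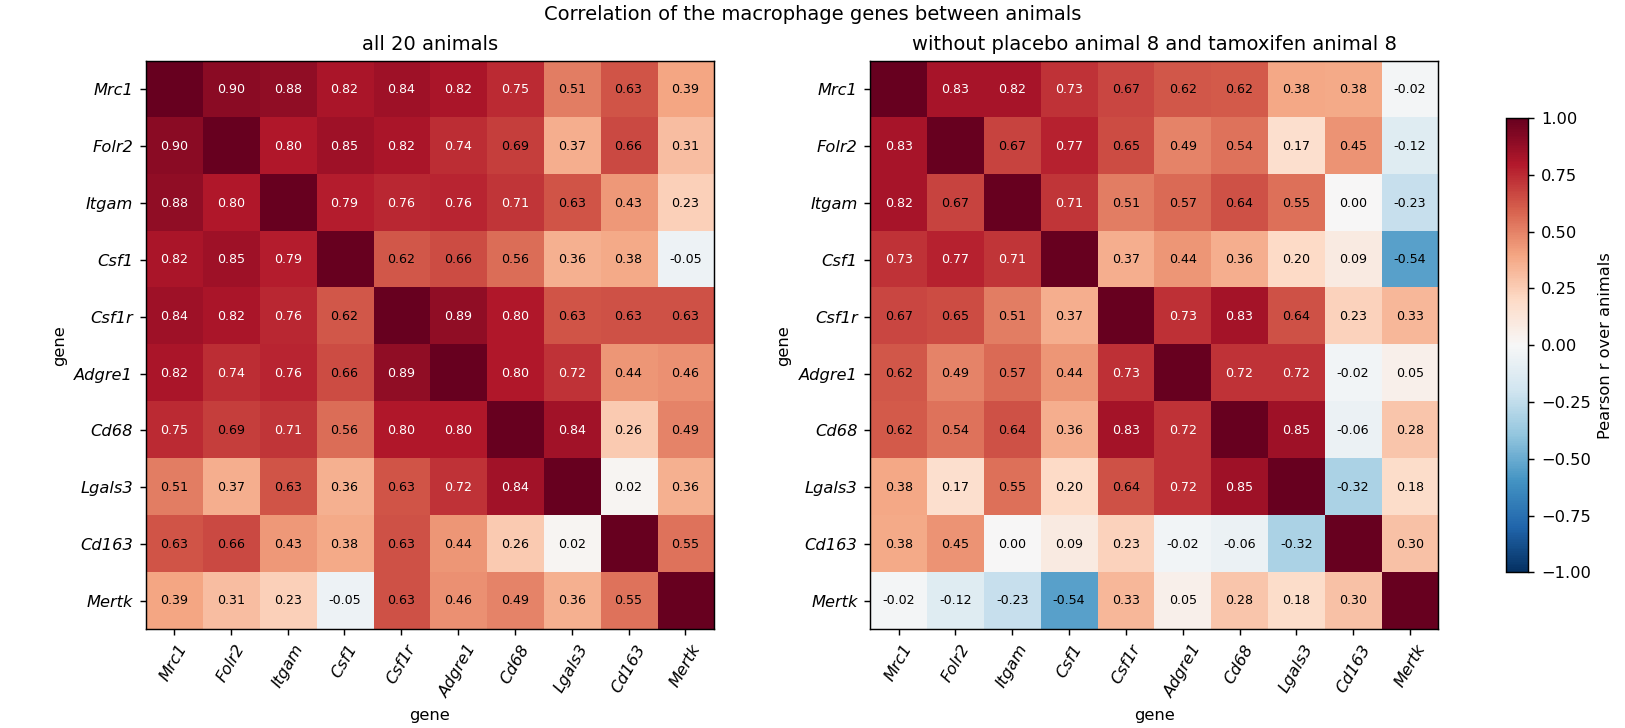
Pearson r between the 10 macrophage genes (both axes) over all 20 animals (left) and over the 18 animals left without placebo animal 8 and tamoxifen animal 8 (right), with colour and printed value for r. Mrc1 and Folr2 (0.90) and Adgre1 and Csf1r (0.89) lead on the left, and on the right every r of Cd163 and of Mertk is lower than on the left, with 6 of 9 positive for Cd163 and 5 of 9 for Mertk.

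Among 12498 other genes tested, those most like Adgre1 over the 20 animals were Fcgr3 (r = 0.91), Clec4a3 (0.90), Ms4a7, Clec10a and Rassf4 (0.89 each). Fcgr3 encodes a receptor for antibody, and Clec4a3 and Clec10a encode lectin receptors of myeloid cells. To the mean of the 10 centred members the closest were Clec4a3 (r = 0.97), Pirb (0.96), Clec10a, Fcgr3 (both 0.95) and Prss23 (0.92). These correlations are descriptions of genes picked for their likeness. None of the 7 genes passed in the outcome, treatment or 7 with 7 comparison, where their limma adjusted p-values lay between 0.558 and 0.988. As they were picked for likeness to the members on the same arrays, this is not separate evidence.

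A further 93 genes of macrophage biology were listed, of which 89 had a probe set and 76 were tested. In the outcome comparison 1 of the 76 rose with a later tumor and 0 fell, in the treatment comparison 0 passed, and in the 7 with 7, 1 rose and 3 fell in tamoxifen animals without tumors. The shares called were thus 1.32%, 0.0% and 5.26% of the 76, against 0.232%, 0.008% and 4.63% of all genes, so the share in the 7 with 7 was near the background. Median differences of the 76 were -0.023, 0.032 and 0.045. In the other 5 comparisons 0 of the 76 passed.

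The gene that rose with outcome was Itgav, an integrin chain used in the engulfment of dying cells and made by many cell types. It averaged 10.50 with a later tumor and 10.20 without, a difference of 0.30 ± 0.062 (SE, n = 10 each, limma adjusted p = 0.0456), with 10 of 10 tumor animals above the median of the others. That call was lost without any 1 of 15 animals, all except placebo animals 3 and 10 and tamoxifen animals 1, 2 and 10, with limma adjusted p up to 0.0971, and also with treatment in the model (0.301), without placebo animals 7, 8 and 9 (0.0693), without placebo animal 8 and tamoxifen animal 8 (0.0848), with centred arrays (0.0625) and with no filter (0.0545). In the 7 with 7, Itgav fell by 0.38 ± 0.068 (SE, n = 7 each, limma adjusted p = 0.00388), and the call held in all 31 other fits.

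Cd14, a co-receptor for bacterial lipopolysaccharide, fell by 0.76 ± 0.17 in the 7 with 7, from 10.78 to 10.02 (SE, n = 7 each, limma adjusted p = 0.0152). Cd9, a tetraspanin found on lipid-laden macrophages and on epithelium, fell by 0.60 ± 0.14, from 11.36 to 10.76 (adjusted p = 0.0184). Both calls were lost without placebo animals 7, 8 and 9, where limma's adjusted p was 0.135 and 0.128. Marco, a scavenger receptor of lymph node macrophages, rose by 0.84 ± 0.24, from 8.80 to 9.65 (adjusted p = 0.0481). It lost the call without any 1 of 16 animals, all except placebo animals 1, 4 and 10 and tamoxifen animal 8, with limma adjusted p up to 0.110. Of these, placebo animals 3, 5 and 6 and tamoxifen animals 1, 2 and 10 were in neither arm. Marco also lost the call without placebo animals 7, 8 and 9 (0.329), with array weights (0.0787) and with no filter (0.0573).

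Some lists of markers of other cells moved in the same comparison, where 4.63% of all genes were called. Their part in the 4 values was not tested. Of the pan-epithelial markers 7 of 8 fell and none rose, and of the milk genes 6 of 7 fell. Of the T cell markers 6 of 6 rose, and of the skeletal muscle markers 5 of 6 rose. Other lists moved little: 1 of 6 neutrophil and 1 of 5 dendritic cell markers rose, and 1 of 6 fibroblast markers fell. No B cell, mast cell, white adipocyte or endothelial marker was called. The mean level of the pan-epithelial list ran from 8.71 to 9.77 in tamoxifen animals without a tumor and from 9.64 to 10.93 in placebo animals with one. For milk genes these ranges were 7.27 to 8.04 and 9.77 to 12.54, for T cell markers 9.27 to 10.39 and 8.97 to 9.47, and for muscle markers 7.87 to 12.31 and 5.93 to 8.91. With outcome, 5 of 7 milk genes rose, in the comparison in which Itgav rose and 0.232% of all genes were called. No gene of the other lists of cell markers was called there.

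By list, the genes with the smallest p that did not pass had these values. In the CSF1 axis list Irf8, a myeloid transcription factor, differed by -0.26 with outcome and 0.27 with treatment (limma adjusted p = 0.336 and 0.379). In the resident macrophage list Cd209f differed by 0.27 with outcome (0.407) and Mgl2, a lectin receptor, by 0.55 with treatment (0.177), where 10 of 10 tamoxifen animals lay above the placebo median. C1qb, a chain of complement C1q, differed by 0.20 with outcome and -0.11 with treatment (0.574 and 0.808).

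Among engulfment genes Dock1 differed by -0.13 with treatment (limma adjusted p = 0.179). Cd14 differed by 0.63 with outcome (0.0699) and -0.43 with treatment (0.290), and Cd9 by 0.49 and -0.36 (0.0916 and 0.275). Of the inflammatory list Plac8 differed by 0.50 with outcome (0.337) and Tnf, the tumor necrosis factor gene, by 0.10 with treatment (0.255). Of the alternative activation list Arg1, arginase 1, differed by -1.002 with treatment (0.192) and Tgfb1 by -0.22 with outcome (0.163). Of the lymph node macrophage list Marco differed by -0.68 with outcome (0.108) and Spic by 0.28 with treatment (0.198).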

How the data were processed

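Gene expression was measured on 20 Affymetrix arrays, 1 per animal, and groups were taken from the labels. The deposited values are log2 expression per probe set (45101). Per the submitters' processing notes the authors used RMA, which corrects background, normalizes between arrays and summarizes probes; no version was found in the sources used here. Probe sets with 1 symbol (34958) were used, 932 with several and 9211 with none were left out, and each gene was represented by its probe set of highest mean. Genes that exceeded 6.85 (the overall median) on 3 or more arrays were tested with limma 3.58.1 in R 4.3.3 (two-sided, Benjamini-Hochberg over 12499 genes, threshold 0.05). The 5 splits with arms of 3 and the 7 with 7 are contrasts of a 4-group model. Correlations were tested by permutation (100000 resamples, two-sided; smallest possible p 1e-05). The procedure was tested on simulated data. Named genes were all members, per list the gene of smallest p by outcome and by treatment and every gene that passed, and the 5 genes most like Adgre1 and the members' mean. The members, lists and the fits without placebo animals 7, 8 and 9 were chosen with earlier results of these data known. Fits without placebo animal 8 and tamoxifen animal 8 were added after seeing the data. The labels used here name no batch. Genes without a probe set are not analysed here.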

Additional observations from a re-analysis of the deposited data

Results flagged for a closer look

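Each of the 10 members was tested for a value far from the rest in each of the 2 groups of 7 animals. Of these 20 tests, 2 gave a flag. Chance gives about 1 in 20 for separate tests. The members share the same animals and correlate, so these 20 are not separate and the count cannot be held against that rate. Adgre1 was 8.38 in tamoxifen animal 8 (no tumor), with the next lowest of its 7 animals at 9.07. Csf1r was 11.56 in placebo animal 8 (later tumor), with the next lowest of its 7 animals at 12.28. Both animals were below the mean for 10 of 10 macrophage genes, and no member was called by limma in any comparison without either or both of them.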

How the results depend on the processing

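A macrophage gene was called in 1 of 258 refits of the 8 comparisons, that of Itgam in the comparison of 7 with 7 animals with a replicate block. Of 1140 refits of the 35 member differences given above, 138 changed direction, 1001 kept direction and call, and 1 was newly called; the cause of these changes was not tested. Same-numbered placebo and tamoxifen animals were correlated over the genes tested, on each gene's deviation from its group mean. These correlations ran from -0.101 to 0.586, with 4 of 10 over 0.1 and 3 of 10 best with their own number. These values were not tested against a chance level, so they do not show whether the animals were paired. Whether same-numbered animals share a litter or day is not known. With the number as a replicate block, genes called were 1426 by outcome, 235 by treatment, 1647 in the 7 with 7, 602 by outcome within placebo, 5 within tamoxifen, 3 by treatment without tumor and 2 for the interaction, and 1 macrophage gene, Itgam, was called in the 7 with 7 (0.30, limma adjusted p = 0.0443). Both the outcome and the 7 with 7 differences then rest on animals numbered 4, 7, 8 and 9. In each of these numbers the placebo animal had a later tumor and the tamoxifen animal did not. The blocked outcome difference is thus the 7 with 7 difference with its sign turned, and outcome cannot be told apart from treatment there. Under the block the direction turned for Csf1 (-0.022), Cd163 (-0.19) and Mertk (0.029) by outcome, Csf1 (0.022), Mrc1 (-0.0054), Cd163 (0.19) and Mertk (-0.029) in the 7 with 7, and Cd163 (-0.18) by treatment with tumor. At an unadjusted p under 0.05 the block gave 6 members by treatment without tumor, 7 for the interaction, 4 by outcome within placebo, 2 by treatment with tumor, and 1 each by treatment, in the 7 with 7 and by outcome within tamoxifen. Outside the block that count was at most 3, for the interaction, with array weights and without placebo animal 8 and tamoxifen animal 8; by treatment without tumor the latter gave 2, Lgals3 (0.0219) and Itgam (0.0177).

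Without placebo animals 7, 8 and 9, genes called were 8 by outcome, 0 by treatment, 141 in the 7 with 7, 0 by outcome within placebo, 0 within tamoxifen and 14 by treatment without tumor. Direction turned for Csf1r (0.095), Itgam (0.047) and Mertk (0.034) by outcome, Csf1r (-0.059), Csf1 (-0.023), Cd68 (-0.061), Mrc1 (-0.11) and Cd163 (-0.21) by treatment, Csf1r (-0.13), Mrc1 (-0.24), Itgam (-0.069) and Mertk (-0.066) in the 7 with 7, and Cd163 (-0.051) by treatment with tumor. Without placebo animal 8 and tamoxifen animal 8, chosen after seeing the data, genes called were 6 by outcome, 2 by treatment and 0 within tamoxifen, 21 member pairs correlated, and direction turned for Csf1r by outcome (0.010), Cd163 by treatment (-0.067), and Cd68 (0.031) and Mertk (-0.0090) in the 7 with 7. With array weights, genes called were 13 within tamoxifen, 18 by treatment without tumor, 2 with tumor and 1 for the interaction. Direction then turned for Csf1r (0.063), Itgam (0.0020) and Mertk (0.025) by outcome, Csf1r (-0.034), Csf1 (-0.035), Cd68 (-0.083), Mrc1 (-0.087) and Cd163 (-0.10) by treatment, and Csf1r (-0.074), Mrc1 (-0.13) and Mertk (-0.046) in the 7 with 7.

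With each array centred, 11 genes were called by outcome and Mrc1 was -0.0020. With no filter, 14 were called by outcome and 2 by treatment. With the other factor in the model 0 genes were called by outcome and 0 by treatment, and Csf1r was 0.0040 by outcome, Adgre1 0.030 and Folr2 0.029 by treatment. The mean of probe sets called 0 genes by treatment and 2 by outcome within placebo, with Csf1 at -0.0098 by outcome and 0.020 in the 7 with 7. The probe set of largest variance called 15 genes by treatment, with Csf1 at -0.044 and 0.080. Quantile normalization gave Csf1r 0.00090 by outcome and Mertk 0.00039 by treatment, the number run called 45 genes by outcome, and a filter on 10 arrays called 3 by treatment without tumor.

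Leaving out each animal in turn, genes called ran from 1 to 118 by outcome, 0 to 110 by treatment, 295 to 846 in the 7 with 7, 0 to 60 by outcome within placebo, 0 to 7 within tamoxifen, 2 to 17 by treatment without tumor, 0 to 1 with tumor and 0 to 3 for the interaction. By outcome Csf1r ran from -0.076 to 0.072, Cd68 from -0.048 to 0.15, Mrc1 from -0.060 to 0.081, Cd163 from -0.022 to 0.19, Lgals3 from -0.23 to 0.066 and Mertk from -0.065 to 0.024. By treatment Adgre1 ran from -0.099 to 0.065, Csf1r from -0.040 to 0.11, Csf1 from -0.014 to 0.032, Cd68 from -0.092 to 0.10, Mrc1 from -0.045 to 0.096, Cd163 from -0.12 to 0.094, Mertk from -0.058 to 0.031 and Folr2 from -0.12 to 0.038. In the 7 with 7 Adgre1 ran from -0.22 to 0.035, Csf1r from -0.084 to 0.13, Csf1 from -0.052 to 0.024, Cd68 from -0.17 to 0.12, Mrc1 from -0.098 to 0.12, Cd163 from -0.22 to 0.10 and Mertk from -0.055 to 0.078.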
